A study of Schizosaccharomyces pombe with 12 samples.

Results

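Fission yeast cells taken from YES, a rich medium of yeast extract and supplements, were compared with cells grown for 8 h in ePMGT with phosphate, a defined medium. The comparison kept every annotated feature whose average in either group was 100 or more normalized reads, which left 5378 of the 6988 features listed (77%), 4814 protein-coding and 564 non-coding. Each group had 3 libraries of poly(A)+ RNA, given as biological replicates, out of 12 libraries that also sampled 2 h and 4 h. Both groups were the same wild-type h- strain, AGP72, grown at 30 °C to log phase. The study's strain list adds leu1-32, ura4-D18, his3-D1 and an ade6 allele to all strains, and ura4 was at 0 in all 6 libraries. The other listed genes had reads, with leu1 averaging 9089 at 0 h and 6675 at 8 h, his3 281 and 201, and ade6 3611 and 2937. The 0 h group was harvested from YES. The 8 h group had been moved to ePMGT(+PO4), in which glutamate is the added nitrogen source beside glucose, adenine, uracil, histidine, lysine, leucine, thiamine, vitamins, minerals and a mix of the other amino acids. No YES culture was sampled at 8 h, so medium, handling and time in culture cannot be told apart.

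Fission yeast adjusts its transcripts to the nutrients in its medium. Iron uptake genes are repressed in iron-replete cells by Fep1, a factor that binds GATA elements, and zinc uptake genes by Loz1. Transporters and enzymes for poorer nitrogen sources are held down when good ones are at hand, and many hexose transporters and glucosidases are held down by glucose. Ribosomal proteins and the factors that assemble ribosomes make up a large part of a growing cell's messenger RNA and are known to move together with nutrient supply.

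A pair of short sequence elements recurs in the genes described below and is shown here from the RefSeq genome ASM294v3, each stretch written 5′ to 3′ in the direction of its gene. The first is the Fep1 GATA element (AGATAA or TGATAA, searched on both strands from 250 bases before to 50 after the annotated start), printed in capitals for the divergent neighbours fip1 (chrI:4234828-4234855) and fio1 (chrI:4234851-4234878), which encode the iron permease and its partner oxidase, and for frp1 (chrII:162456-162483), a ferric reductase.
fip1: ctggacaaaagTTATCAgatgtaatcca
fio1: tccagattggtAGATAAgcaaccgatca
frp1: ataacgcatcaAGATAAtcagatatgac
The second is the HomolD box (CAGTCACA on either strand), a core promoter element known from fission yeast ribosomal protein genes. It is printed in capitals for rpl42 (chrI:3722402-3722429), and for rps1502 and rpp203, divergent neighbours that share the stretch at chrI:3869005-3869032.
rpl42: gaataagaaaCAGTCACAtttgtacaac
rps1502: acgaaaaagaCAGTCACAacgtttcaag
rpp203: cttgaaacgtTGTGACTGtctttttcgt
A match shows only that these letters stand in the window. The windows of fip1 and fio1 overlap, and the 2 sites printed for them stand in both windows.

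Values are group averages of reads divided by size factors (normalized reads), and the change is the log2 of the 8 h average over the 0 h average with its standard error. A feature is said to rise or fall where the adjusted p of a Wald test (Benjamini-Hochberg over the 5378 features) was 0.05 or less, and is called where it also changed 2-fold or more. Of the tested features, 1528 rose (28.4%) and 1366 fell (25.4%), and 2429 of these 2894 changed by less than 1.5-fold. Called were 136 higher (2.53%) and 42 lower (0.781%). Of the coding features, 113 were called higher and 15 lower, and of the non-coding 23 higher and 27 lower. Of the called features, 43 changed 4-fold or more and 20 changed 8-fold or more. The median log2 ratio was 0.02 (0.03 for coding and −0.12 for non-coding features), and the median standard error was 0.0628. Read numbers per library, recovered for 5046 of the features, placed all 3 libraries at 8 h above all 3 at 0 h in 1705 of them (33.8%) and below in 1420 (28.1%), and the groups did not overlap in any of the 158 called features among these. The 3 libraries of each group are named a, b and c below because they could not be matched to replicate numbers, and the 332 tested features without library values in both groups all averaged 10000 or more in one of them. The group averages summed to 16948069 at 0 h and 17017175 at 8 h, and the reads in recovered features were 7966386 to 11718496 per library.

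**Figure D1:**
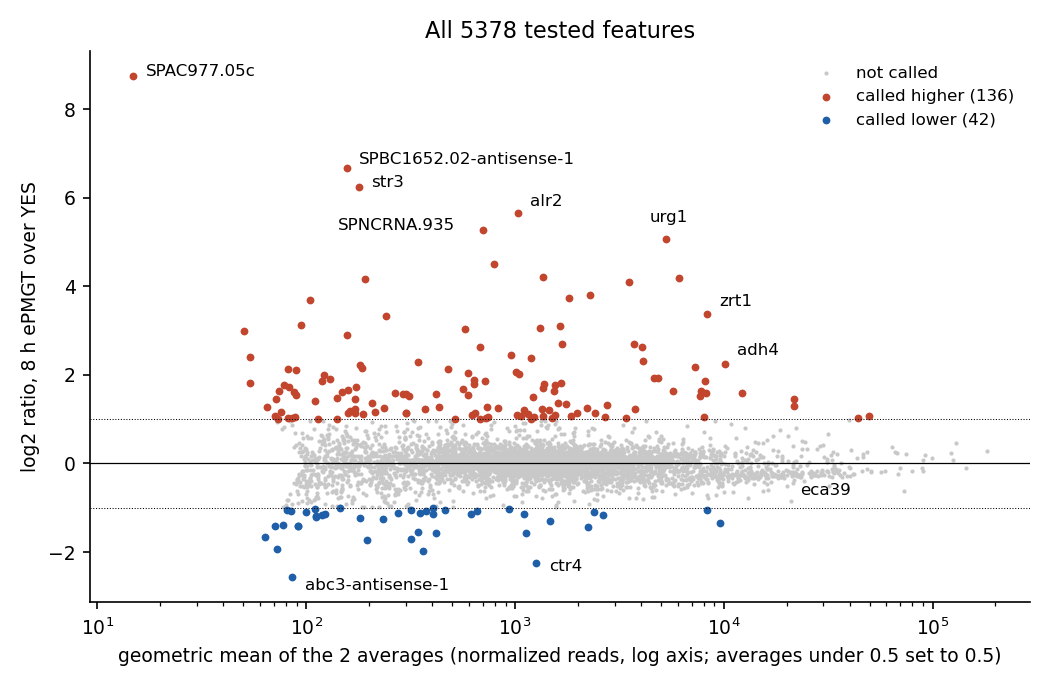
Each point is 1 of the 5378 tested features, plotted as the log2 ratio of 8 h in ePMGT over YES against the geometric mean of its averages in normalized reads (log axis), with dotted lines at 2-fold. Most points lie within 2-fold, and the 136 features called higher reach further from 0 than the 42 called lower.

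All tested iron acquisition genes rose. Of 14 listed genes for iron, siderophore and heme acquisition, 13 were tested, all 13 rose and 10 were called, with a median log2 ratio of 1.63 against 0.02 for all features. str3, a heme transporter of the plasma membrane, stood at 19.8, 13.7 and 27.9 normalized reads in the YES libraries and at 1757, 1687 and 1195 after 8 h, a log2 ratio of 6.24 ± 0.27 (SE). frp1 went from 182, 170 and 145 to 4023, 3948 and 3297 (4.50 ± 0.12). fio1, the multicopper oxidase, went from 282, 340 and 332 to 5952, 6554 and 5134 (4.21 ± 0.09). In all 3 genes the lowest library at 8 h was at least an order of magnitude above the highest in YES, and library c was the lowest of its group at 8 h. The permease gene fip1 had 840, 868 and 827 normalized reads in YES and averaged 14464 at 8 h (4.10 ± 0.08).

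The remaining iron genes, listed after their values were seen to complete the class, covered a wide range. The siderophore transporter str1 went from 524, 442 and 532 to 6505, 7260 and 6076 (3.73 ± 0.09), while its relative str2 rose by only 0.62 ± 0.07. The mitochondrial carrier mmt1 rose by 2.64, sib2, which hydroxylates ornithine for ferrichrome synthesis, by 1.63, the reductase frp2 by 1.47, the vacuolar heme exporter abc3 by 1.34 and the iron and zinc transporter fet4 by 1.28. The ferrichrome synthetase sib1 (0.17) and sib3 (0.26) rose least. The untested member, shu1, a heme uptake gene, averaged 3.46 in YES and 48.9 at 8 h, below the minimum of 100. Of the 13 windows, 9 held a Fep1 GATA element (69.2%), against 2260 of 5138 coding windows (44%), and str3, with the highest ratio, held none in its window. Among the 9, the windows of fip1 and fio1 hold the same 2 sites. The element was not particular to iron genes or to rises. It stood in 17 of 19 windows for arginine, urea, urate and glutamate use and in 8 of 9 for arginine synthesis, which fell. Its share was 51.3% in coding features called higher and 60% in those called lower.

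Other metal transporters went both ways. Of 13 tested, 6 rose (46.2%, against 28.4% of all features) and 4 fell (30.8%, against 25.4%), with a median of 0.11. zrt1, the high-affinity zinc importer, had 2478, 2549 and 2693 normalized reads in YES and averaged 26642 at 8 h, a log2 ratio of 3.37 ± 0.04. The copper importer subunits were the called falls. ctr4 went from 2946, 2139 and 3163 to 769, 442 and 531 (−2.24 ± 0.22), the lowest ratio of any coding feature tested, and its partner ctr5 from 2377, 1965 and 2512 to 1049, 862 and 898 (−1.29 ± 0.13). Both subunits were lowest in library b of each group, and the groups did not overlap.

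**Figure D2:**
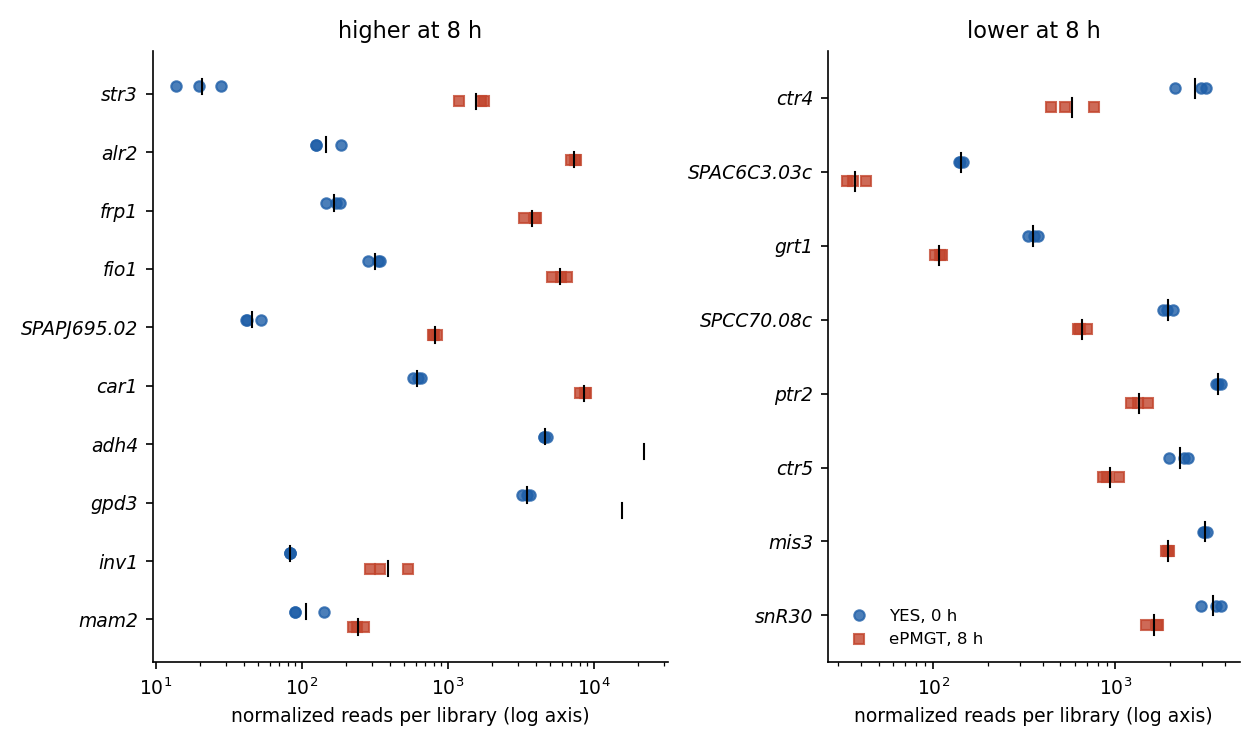
Normalized reads per library (log axis) for 10 features that were higher and 8 that were lower at 8 h; circles are the 3 YES libraries, squares the 3 ePMGT libraries and black ticks the group averages. adh4 and gpd3 have only an average at 8 h, and in every other feature drawn the libraries of the groups do not overlap.

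Genes for uracil and for nitrogen from arginine and purines gave the next rises. The uracil-regulated genes urg1, a GTP cyclohydrolase II, and urg2, a uracil phosphoribosyltransferase, had 912, 818 and 1014 and 1336, 1421 and 1527 normalized reads in YES. They averaged 30721 (5.07 ± 0.22) and 25998 (4.19 ± 0.19) at 8 h. A second uracil phosphoribosyltransferase gene, uck2, went from 453, 467 and 451 to 3912, 3952 and 3532 (3.06 ± 0.20), and urg3 rose by 2.32 ± 0.14. Of 11 tested genes for uracil and uridine use, 8 rose (72.7%), 1 fell (9.09%) and 5 were called higher. Among 19 for arginine, urea, urate and glutamate use, 12 rose (63.2%), 4 fell (21.1%) and 5 were called higher. Over all features 28.4% rose, 25.4% fell and 2.53% were called higher. car1, arginase, which splits arginine into ornithine and urea, went from 619, 571 and 652 to 8709, 8848 and 8063 (3.80 ± 0.12). uro1, uricase, went from 358, 375 and 400 to 1323, 1495 and 1292 (1.86 ± 0.11), an agmatinase gene, SPAPB24D3.03, rose by 1.77 ± 0.06, and gdh1, the NADP-dependent glutamate dehydrogenase, averaged 13167 in YES and 36077 at 8 h (1.45 ± 0.07). The groups did not overlap in uck2, car1 or uro1.

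Amino acid and peptide transporters rose in the majority but not as a whole. Of 27 tested, 18 rose (66.7%, against 28.4% of all features) and 5 fell (18.5%, against 25.4%), and the median was 0.66. Of the 27, 10 were called higher and 1 lower, where 2.53% and 0.781% of all features were called. isp5, an amino acid permease, went from 183, 192 and 224 to 1642, 1791 and 1502 (3.04 ± 0.22), and isp4, an oligopeptide transporter, from 1416, 1455 and 1524 to 9748, 9547 and 9160 (2.69 ± 0.12). SPBPB2B2.01 rose by 2.45 ± 0.13 and SPCC794.04c by 2.30 ± 0.12. The called fall was ptr2, the peptide transporter, which went from 3695, 3573 and 3803 to 1520, 1334 and 1219 (−1.44 ± 0.13). The opposite changes of isp4 and ptr2 thus concerned 2 peptide transporters of different families. Within the 6 vacuolar amino acid transporters, fnx2 (0.63 ± 0.07), atg22 (0.55 ± 0.06) and avt3 (0.17 ± 0.04) rose and stm1 fell by 0.22 on the log2 scale. Of 29 other named plasma membrane transporters, 16 rose (55.2%) and 8 fell (27.6%, near the 25.4% of all features). The spermidine transporter mfs3 averaged 1637 in YES and 10127 at 8 h (2.63 ± 0.15), whereas vht1, which imports the vitamin biotin, averaged 15242 in YES and stood at 5790, 5853 and 6242 at 8 h (−1.35 ± 0.07).

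Sugar uptake and central carbon genes followed. Of 6 tested hexose and gluconate transporters, 5 rose and 4 were called, with a median of 1.35. ght5, the high-affinity glucose transporter, went from 2592, 2436 and 2423 to 9044, 9254 and 10179 (1.93 ± 0.11), and ght3, a gluconate transporter, from 92.8, 86.9 and 106 to 342, 290 and 315 (1.73 ± 0.14). ght4 rose by 1.55 and ght1 by 1.15. Among 25 glucosidases, amylases and invertase, 14 rose and 1 fell. inv1, external invertase, went from 83.3, 83.0 and 82.5 to 292, 344 and 533 (2.23 ± 0.17), with library c at 8 h apart from the others. The same library was also the highest for agl1, maltase (490, 501 and 533 to 864, 878 and 1260, 0.98 ± 0.12), and for fbp1, the gluconeogenic fructose-1,6-bisphosphatase (89.7, 101 and 77.9 to 254, 250 and 341). Of 20 tested glycolytic and fermentative genes, 9 rose and 1 fell. gpd3, a glyceraldehyde 3-phosphate dehydrogenase, averaged 3449 in YES and 15484 at 8 h (2.17 ± 0.12), and adh4, an alcohol dehydrogenase, averaged 4627 and 22033 (2.25 ± 0.06). adh1, the main fermentative alcohol dehydrogenase, was the one that fell, from an average of 90998 to 58694 (−0.63 ± 0.07), the largest loss of reads by any coding gene. The citric acid cycle changed by smaller amounts, from −0.19 to 0.38 (mdh1, malate dehydrogenase, 0.38 ± 0.06). Of its 14 genes, 8 rose (57.1%) and 4 fell (28.6%), against 28.4% and 25.4% of all features. Of 30 subunits of respiratory complexes III and IV and ATP synthase, 10 rose (33.3%, against 28.4% of all features) and none fell (atp2, 0.40 ± 0.05).

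The cytosolic translation machinery fell by small amounts in nearly all of its genes. Of 135 ribosomal protein genes tested, 123 fell and none rose, with a median of −0.25 and values from −0.39 to −0.05, so that none was called. The 40S proteins (53 of 55 fell, median −0.25) and the 60S proteins (70 of 80 fell, median −0.27) hardly differed in median. rps2202 went from 10785, 11515 and 11502 to 9016, 8919 and 8440 (−0.36 ± 0.04), and rpl3702 from 10390, 10675 and 10899 to 8567, 7890 and 8049 (−0.38 ± 0.05). Ribosomal proteins took 17.0% of all normalized reads in YES and 14.3% at 8 h, with 15.3% and 15.6% at the times between. Their summed loss of 432003 normalized reads was 29.8% of all losses summed over tested features. Many of these genes have a near-identical copy elsewhere in the genome, so that counting could split reads between copies.

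The share of features that fell was far above the 25.4% background in the factors that build and serve the ribosome. Ribosome assembly and rRNA processing had 94 of 102 lower and none higher, with a median of −0.38. mis3, an rRNA processing factor, went from 3088, 3184 and 3057 to 1984, 1945 and 1911 (−0.68 ± 0.06), and rlp24, a 60S assembly factor, from 5580, 5534 and 5813 to 3654, 3756 and 3583 (−0.62 ± 0.04). RNA polymerases I and III, which make ribosomal and transfer RNA, had 20 of 23 subunits lower (median −0.32), with rpa43 at 3059, 3139 and 2801 in YES and 2064, 1960 and 1982 at 8 h. Of 6 subunits of RNA polymerase II, 1 rose (rpb2, 0.16 ± 0.04) and none fell. Initiation factors fell in 24 of 32 cases (median −0.17), elongation and release factors in 11 of 16 (median −0.20) and cytosolic aminoacyl-tRNA ligases in 17 of 21 (median −0.23). tif51, eIF5A, averaged 37887 in YES and 26739 at 8 h (−0.50 ± 0.04).

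Mitochondrial translation did not share the pattern. Mitochondrial ribosomal proteins rose in 12 and fell in 9 of 74 cases with a median of 0.00, and mitochondrial aminoacyl-tRNA ligases rose in 6 and fell in 1 of 13. Their shares of falls, 12.2% and 7.69%, lie below the background of 25.4%, and the difference from the cytosolic classes was not tested. The HomolD box stood in 86 of the 135 windows of cytosolic ribosomal protein genes (63.7%), in none of the 74 of mitochondrial ones, in 2 of 102 of ribosome assembly genes, and in 137 of 5138 coding windows overall (2.67%), those 86 included. The box lay a median of 51 bases before the annotated start. The 86 genes with the box, among them rpl42, rps1502 and rpp203 shown above, had a median log2 ratio of −0.26, and the 49 without it −0.25.

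**Figure D3:**
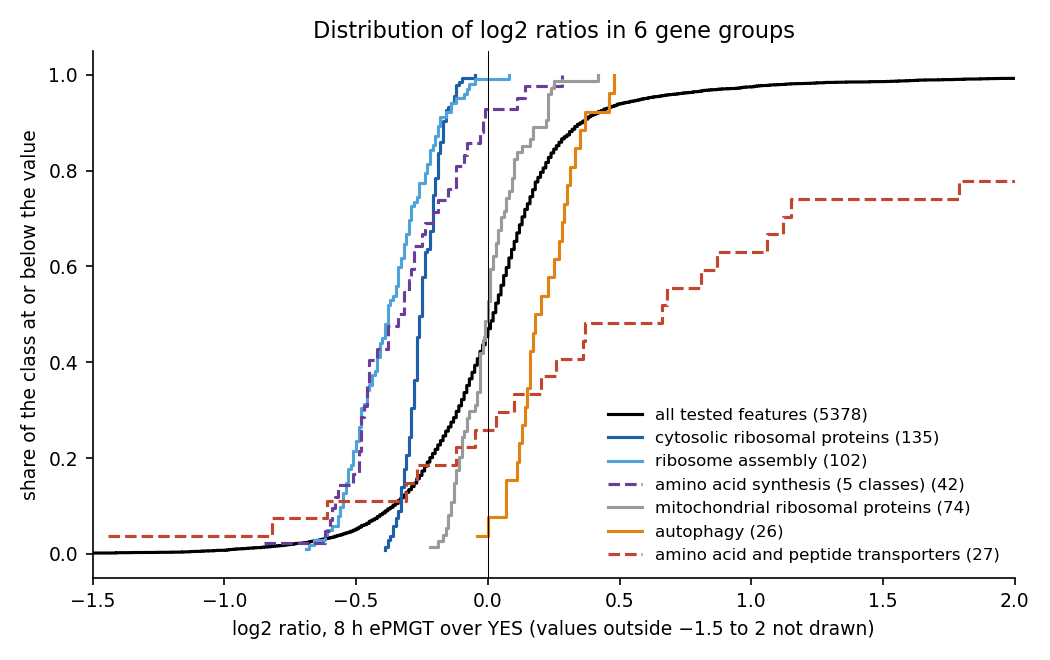
Cumulative share of features at or below each log2 ratio (8 h in ePMGT over YES) for all tested features and 6 gene groups, with the number of features in brackets. The curves of cytosolic ribosomal proteins and ribosome assembly lie almost wholly below 0, that of mitochondrial ribosomal proteins is centred on 0, and autophagy lies almost wholly above 0.

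Synthesis of amino acids and nucleotides fell as well. The branched chain pathway fell in all 9 genes (median −0.42), led by eca39, the branched chain aminotransferase, which averaged 28228 in YES and 15702 at 8 h (−0.85 ± 0.05). Lysine synthesis fell in 6 of 9 (lys4, homocitrate synthase, −0.62 ± 0.05), arginine synthesis in 7 of 9 (arg3, ornithine carbamoyltransferase, −0.58 ± 0.06), histidine synthesis in 5 of 7 (his4, −0.60 ± 0.05) and aromatic amino acid synthesis in 5 of 8 (trp3, anthranilate synthase, −0.49 ± 0.04). In these 5 pathways together 32 of 42 genes fell and 2 rose, and the libraries of the groups stood apart in sum as well, at 178036, 175132 and 174052 normalized reads in YES and 141194, 140470 and 139613 at 8 h over the genes with library values. Purine synthesis fell in 11 of 12 genes, ade10 being the exception (0.22 ± 0.06), and pyrimidine synthesis in 5 of 6. gua2, GMP synthase, averaged 12485 in YES and stood at 8161, 7996 and 7798 at 8 h (−0.64 ± 0.03), and ura3, dihydroorotate dehydrogenase, fell by 0.70 ± 0.04. Sulfate assimilation fell in 4 of 8 genes (met10, sulfite reductase, −0.54 ± 0.08). None of these genes was called, since all falls were below 2-fold.

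One-carbon, glycine and methionine metabolism went the other way, with 12 of 20 genes higher (60%), 4 lower (20%) and 5 called higher. Over all features 28.4% rose, 25.4% fell and 2.53% were called higher. shm1, serine hydroxymethyltransferase, averaged 34283 in YES and 71879 at 8 h (1.07 ± 0.05), sam1, S-adenosylmethionine synthetase, 30858 and 62506 (1.02 ± 0.04), and gcv2, of the glycine cleavage complex, 5624 and 11570 (1.04 ± 0.04). cho1, a phospholipid methyltransferase, went from 2462, 2470 and 2442 to 5843, 5733 and 5605 (1.22 ± 0.05). ade9, the C-1-tetrahydrofolate synthase that also serves purine synthesis, fell by 0.51 ± 0.05. met26, homocysteine methyltransferase, had the largest gain in reads of any coding gene, from an average of 110525 to 152294 (0.46 ± 0.06).

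**Figure D4:**
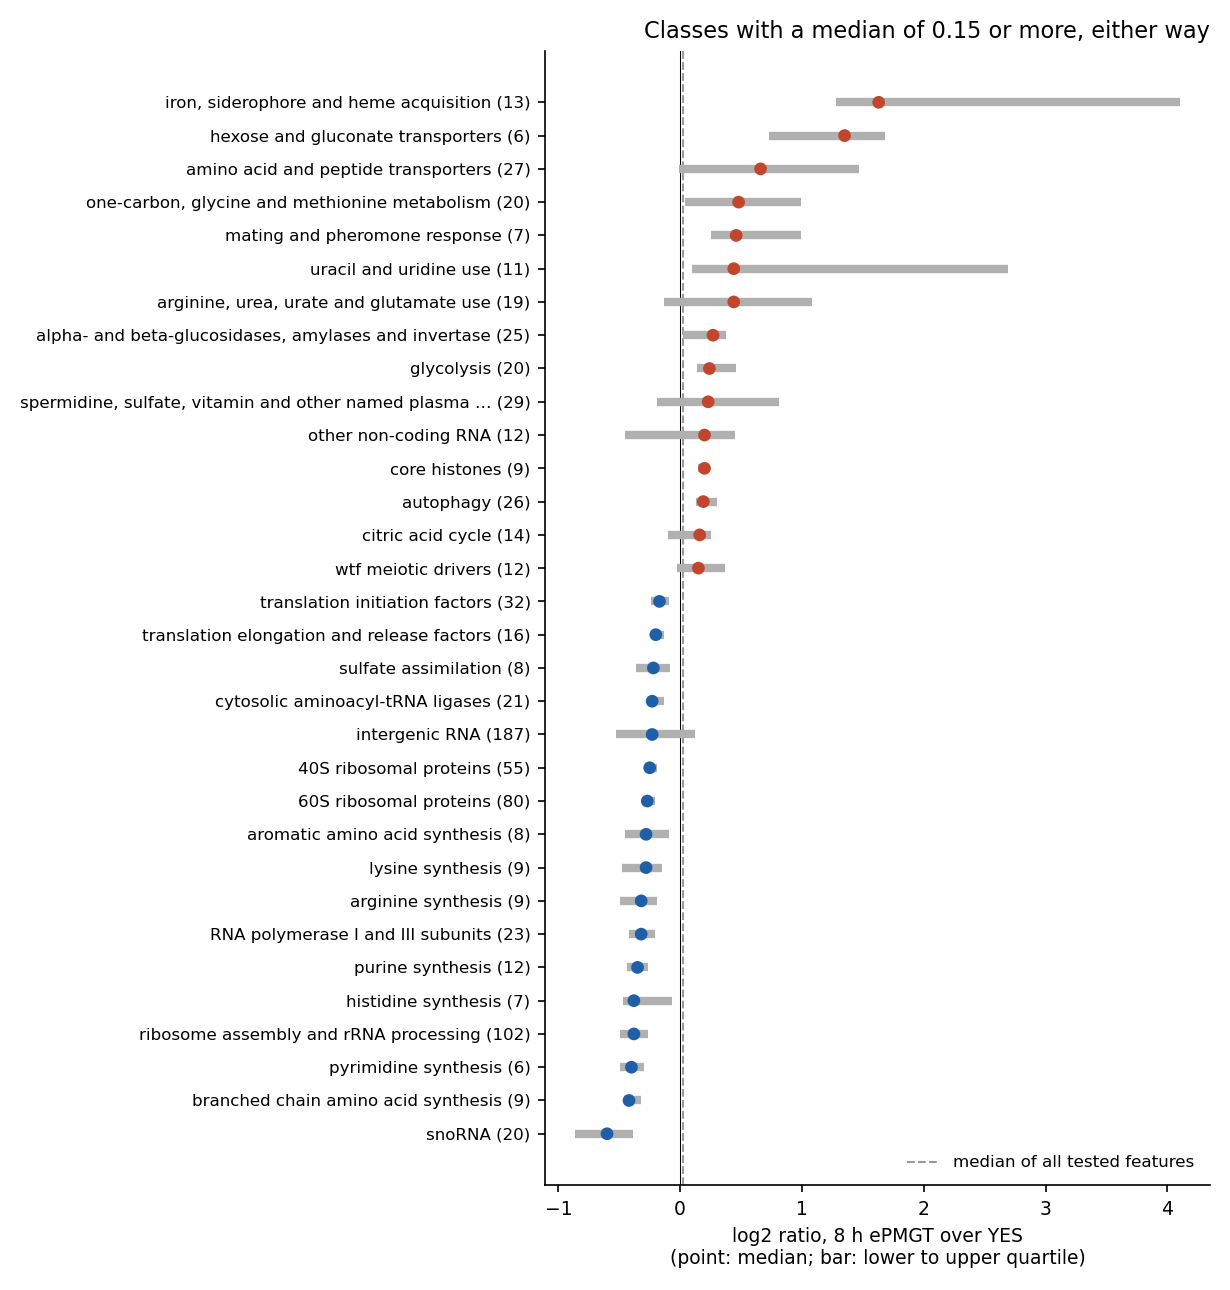
Median log2 ratio (point) and lower to upper quartile (bar) of each gene class with at least 5 tested features and a median of 0.15 or more in either direction, with the number of tested features in brackets. Iron acquisition, hexose transport and amino acid transport have the highest medians (1.63, 1.35 and 0.66), and snoRNA the lowest (−0.60).

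Several further classes rose by little, and the proteasome stayed near the median of all features. Autophagy genes, which target cell contents to the vacuole, rose in 16 of 26 cases and fell in none, with a median of 0.19 and no call. atg1, the kinase that starts the process, went from 1099, 1055 and 1049 to 1456, 1511 and 1449 (0.46 ± 0.07), and atg1801 from 381, 430 and 438 to 558, 592 and 594 (0.48 ± 0.09). The vacuolar serine protease gene isp6, which the study counts among autophagy factors, lay outside this class by its product name. It was called higher, going from 2476, 2325 and 2380 to 5075, 4744 and 4766 (1.02 ± 0.13). Under limma that call was lost without 8 h library a. Serine/threonine kinases rose in 30 of 49 and fell in 3 (ppk15, 0.47 ± 0.06, and nnk1, 0.45 ± 0.05). Core histones rose in 8 of 9, by at most 0.30. DNA-binding transcription factors rose in 34 of 73 and fell in 8. cbf12, a CSL family factor, went from 271, 383 and 339 to 1176, 1257 and 1239 (1.89 ± 0.09) and toe1 from 444, 488 and 482 to 1102, 1215 and 1107 (1.28 ± 0.09), while grt1 went from 356, 375 and 330 to 102, 111 and 109 (−1.72 ± 0.12). The proteasome had 9 of 42 genes higher and 3 lower, or 21.4% and 7.14% against 28.4% and 25.4% of all features, with a median of 0.04, led by the assembly chaperone nas6 (0.61 ± 0.09).

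Protein folding genes were mixed. The CCT chaperonin, which folds actin and tubulin, had 2 of 8 subunits lower and none higher, and this share of falls (25%) was near the 25.4% of all features. Of 37 heat shock proteins and co-chaperones, 9 rose (24.3%, against 28.4% of all features) and 15 fell (40.5%, against 25.4%). hsp9, a small stress protein, averaged 4707 in YES and 14247 at 8 h (1.60 ± 0.13), whereas the ribosome-associated Hsp70 genes ssz1 (9509, 9039 and 9175 to 7136, 6605 and 6847, −0.43 ± 0.04) and sks2 (−0.18 ± 0.06) fell. In oxidant defence, 8 of 18 rose (44.4%) and 5 fell (27.8%, near the 25.4% of all features). There srx1, sulfiredoxin, stood at 178, 163 and 167 in YES and 557, 525 and 413 at 8 h (1.56 ± 0.12). A glutathione S-transferase gene, gst2, was lower (−0.80 ± 0.08).

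Further classes held single large changes among many small ones. Of 14 short chain dehydrogenases and aldo/keto reductases, 4 rose and 4 fell. SPAC521.03 averaged 4528 in YES and 13016 at 8 h (1.52 ± 0.11) and SPAC22A12.17c went from 117, 99.6 and 95.3 to 295, 264 and 293 (1.45 ± 0.17), while the aldo/keto reductase SPAC977.14c averaged 11867 in YES and stood at 6111, 5707 and 5445 at 8 h (−1.04 ± 0.07). Flocculins and cell surface glycoproteins rose in 5 and fell in 4 of 14 cases. SPAC27D7.11c, a But2 family protein, averaged 3267 and 10079 (1.63 ± 0.12), whereas the flocculin pfl3 went from 1309, 1255 and 1273 to 738, 751 and 814 (−0.74 ± 0.10). Among 18 cell wall glucan enzymes, 7 rose and 3 fell, led by gas2, a glucanosyltransferase (14371 and 24143, 0.75 ± 0.05). Of 21 genes of ergosterol synthesis, 7 rose and 3 fell, led by erg32, a sterol desaturase, which went from 1187, 1096 and 1134 to 2189, 2163 and 1983 (0.89 ± 0.05). Genes for wtf proteins, a family of meiotic drivers and their antidotes, rose in 4 and fell in 2 of 12 cases. Proteins specific to Schizosaccharomyces rose in 55 and fell in 25 of 171. Of these 171, 8 were called higher and 1 lower, where 2.53% and 0.781% of all features were called. Both directions were present in each of these classes. Rises made up 28.6% to 38.9% of a class and falls 14.3% to 28.6%, against 28.4% and 25.4% of all features.

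Phosphate genes went both ways, with 5 of 11 higher (45.5%), 4 lower (36.4%) and a median of 0.08, and 3 were called higher. Over all features these shares were 28.4% and 25.4%, the median was 0.02, and 2.53% were called higher. The called rises were 5′-nucleotidases, which release phosphate from nucleotides. SPBPB2B2.06c went from 26.2, 22.5 and 38.3 to 375, 386 and 365 (3.69 ± 0.18), SPAC1039.02 averaged 4231 in YES and 15440 at 8 h (1.87 ± 0.18), and SPAC17G6.03 rose by 1.05 ± 0.07. tgp1, a glycerophosphodiester transporter, went from 347, 372 and 379 to 679, 738 and 638 (0.90 ± 0.07). pho84, the phosphate importer, named after its values were seen, averaged 9592, 6426, 12391 and 16733 over the 4 times in order (0.80 ± 0.05 for the last against YES), and pho1, the secreted acid phosphatase, 18606, 9984, 15869 and 19242 (0.05 ± 0.06, adjusted p of the Wald test 0.477). Neither gene had all its values on one side of YES over the time course.

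Mating genes rose in 5 of 7 tested cases. The strain is h-, which expresses the genes of M cells. mfm2, an M-factor precursor, went from 747, 699 and 744 to 1593, 1559 and 1872 (1.20 ± 0.20), mam2, the receptor for P-factor, from 88.9, 89.9 and 142 to 224, 239 and 267 (1.19 ± 0.16), and mam1, the M-factor exporter, from 1037, 1124 and 1078 to 1746, 1914 and 1968 (0.80 ± 0.07). The other M-factor precursor genes were low, mfm1 averaging 29.2 in YES and 53.9 at 8 h and mfm3 21.3 and 20.7, and sxa2, the P-factor protease, averaged 558 and 580. Genes of P cells were not at 0. map2, the P-factor precursor, averaged 157 and 128 and map3, the M-factor receptor, 348 and 392. Meiosis and sporulation genes rose in 15 (31.2%) and fell in 5 (10.4%) of 48 cases, against 28.4% and 25.4% of all features. Among them mei2, the meiotic RNA-binding protein, stood at 1312, 1351 and 1414 in YES and 2419, 2078 and 1982 at 8 h (0.67 ± 0.10). Of the cell division classes, cyclins, CDK and DNA replication rose in 16 (28.6%) and fell in 7 (12.5%) of 56 (cdm1, a subunit of DNA polymerase delta, 0.74 ± 0.09). Their share of rises was thus that of all features. Kinetochore and spindle genes rose in 10 (17.2%) and fell in 7 (12.1%) of 58. Of these falls, ani1 and ani2, isomerases acting on CENP-A, were lower by 0.71 and 0.77 and the CENP-C gene cnp3 by 0.68. The only called gene of the latter class was dad5, a subunit of the DASH complex that joins kinetochores to microtubules, which went from 32.5, 47.9 and 44.2 to 76.9, 112.8 and 112.0 (1.28 ± 0.24).

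The called changes differed in when they appeared. Of the 113 coding features called higher, 56 were already past 2-fold at 2 h, 73 at 4 h, 37 were under 2-fold at both times, and 78 had their highest average at 8 h. Another 21 had their highest average at 2 h, among them urg1 (42351 at 2 h and 30721 at 8 h) and isp5 (4218 and 1645). Of the 15 called lower, 2 were past 2-fold at 2 h and 5 at 4 h, and 14 had their lowest average at 8 h. A set of 11 coding features under 1.5-fold at both earlier times (9 higher and 2 lower, picked after their values were seen) passed 2-fold only at 8 h. All but SPBC3H7.08c, which averaged 51.5, 58.9, 75.8 and 103.9 at 0, 2, 4 and 8 h, made most of their log2 change after 4 h. adh4 averaged 4627, 5930, 5082 and 22033 over the same times. mfm2 averaged 730.2, 736, 784 and 1675 in that order. Another, fbp1, averaged 89.4, 132, 102 and 282, and cao2, a copper amine oxidase-like gene, 153, 153, 199.8 and 363. In the other direction SPAC6C3.03c averaged 141, 165, 102 and 37.3. Some class medians drifted in one direction over time. Ribosome assembly stood at −0.12, −0.21 and −0.38 at 2, 4 and 8 h, arginine synthesis at 0.17, −0.16 and −0.32, and hexose transport at 0.59, 0.99 and 1.35, while iron acquisition was at 1.22 and 1.24 before reaching 1.63. Others did not, with ribosomal proteins at −0.17, −0.07 and −0.25 and core histones at 0.24, 0.28 and 0.20. All 3 values of a class share the same 0 h libraries.

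**Figure D5:**
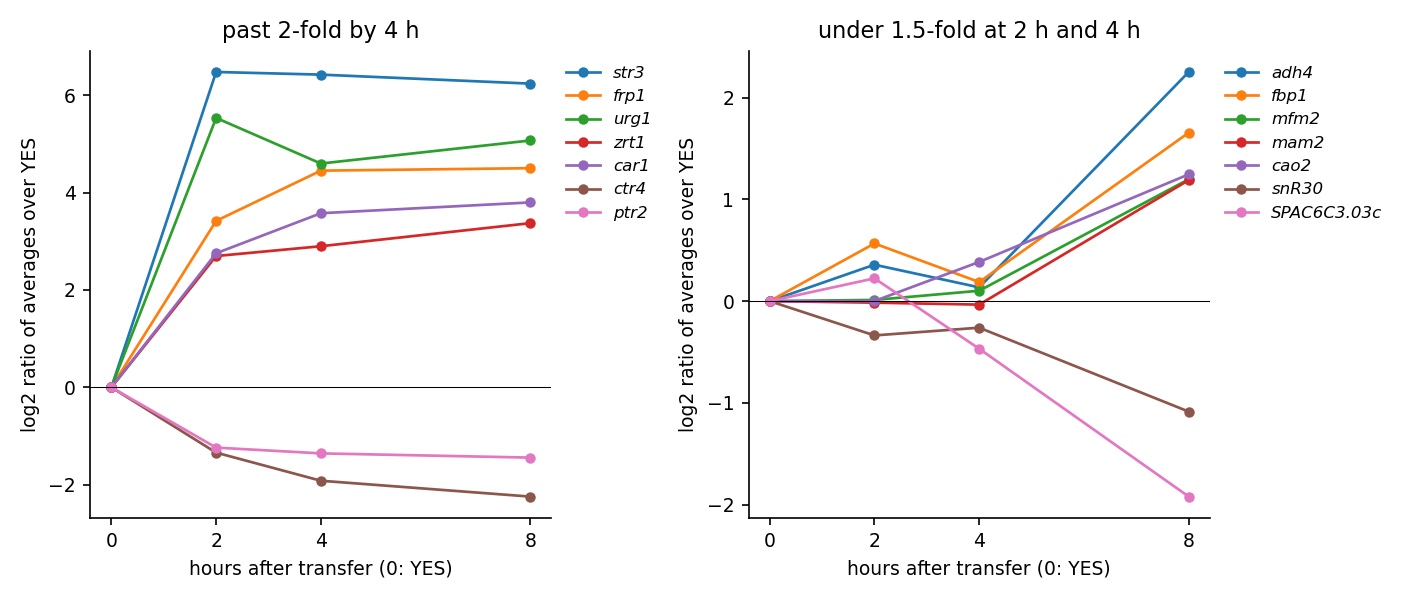
Log2 ratio of the group average to that in YES at 0, 2, 4 and 8 h after transfer for 7 features past 2-fold by 4 h (left) and 7 that were under 1.5-fold at 2 h and 4 h (right). str3 and urg1 are above their 8 h values at 2 h (6.48 against 6.24 and 5.53 against 5.07), whereas adh4, fbp1, mfm2 and mam2 make most of their change between 4 h and 8 h.

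Non-coding RNAs were called in 50 of 564 cases, against 178 of all 5378 tested features. Antisense RNAs rose in 70 (20.8%) and fell in 103 (30.6%) of 337 cases. Intergenic RNAs rose in 32 (17.1%) and fell in 84 (44.9%) of 187, with a median of −0.23. Of all non-coding features 19.3% rose and 37.4% fell, and of all tested features 28.4% and 25.4%. The kit marks strand, but which strand setting the counting used is not stated, so values of overlapping features on opposite strands are uncertain. SPBC1652.02-antisense-1 went from 15.9, 16.6 and 13.9 to 1599, 1576 and 1550 (6.67 ± 0.23), the highest ratio of a non-coding feature, while the gene it overlaps, SPBC1652.02, fell by 0.31 ± 0.07. SPNCRNA.935 went from 106, 94.7 and 139 to 3952, 4938 and 4235 (5.27 ± 0.17) and its opposite-strand neighbour SPNCRNA.934, 99.5% of which it covers, from 655, 724 and 770 to 278, 222 and 228 (−1.56 ± 0.09). The groups did not overlap in SPBC1652.02-antisense-1, SPNCRNA.935 or SPNCRNA.934.

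In the lower direction, abc3-antisense-1 had the lowest ratio of all tested features. It went from 209, 199 and 216 to 30.9, 39.2 and 35.2 (−2.57 ± 0.22), opposite the heme exporter abc3, which went from 1105, 1049 and 1139 to 2737, 3000 and 2622 (1.34 ± 0.06). SPAC24H6.11c-antisense-1 (−1.70 ± 0.11) lay opposite SPAC24H6.11c (1.14 ± 0.06), end4-antisense-1 (−1.98 ± 0.09) opposite end4 (0.27 ± 0.05), and atg1801-antisense-1 (−1.04 ± 0.21) opposite atg1801. The call of atg1801-antisense-1 was lost on fold without YES library b and without 8 h library a or b. Over all tested coding features, 29.5% rose and 24% fell. Of the 27 non-coding features called lower, 13 had coding partners on the opposite strand, some more than 1. Their 15 tested partners included 5 that rose, 2 that fell and 8 that did not pass. Of the 23 called higher, 18 had such partners, again some more than 1. Their 21 tested partners included 11 that rose, 6 that fell and 4 that did not pass. One that rose was meu10 (1.13 ± 0.10), opposite meu10-antisense-1 (1.62 ± 0.18), so pairs moved in opposite and in like directions.

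Small nucleolar RNAs, guides of rRNA modification and processing, fell in 16 of 20 tested cases with a median of −0.60, and 4 were called, of which snR94 and snoZ16 dropped under 2-fold when a single library was left out (YES b or 8 h a or b for snR94, YES c for snoZ16). snR30, the U17 RNA of rRNA processing, went from 2973, 3819 and 3606 to 1722, 1695 and 1483 (−1.09 ± 0.11), and sno52 from 532, 581 and 639 to 212, 209 and 182 (−1.54 ± 0.16). The copies of 18S and 28S rRNA that passed the filter fell by 1.16 ± 0.25 and 1.13 ± 0.27. Poly(A)+ selection removes most of these RNAs, so the values describe what was carried through selection rather than their cellular levels.

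Some of the largest changes belonged to genes not yet named. alr2, alanine racemase, went from 125, 125 and 185 to 7429, 7552 and 6952 (5.66 ± 0.14), and the pseudogene SPBPB21E7.08 from 495, 650 and 530 to 4919, 4957 and 4451 (3.10 ± 0.09). SPAPJ695.02, a protein specific to S. pombe, went from 41.3, 42.0 and 52.3 to 788, 802 and 834 (4.16 ± 0.14). SPAC977.05c, annotated as a velum formation protein, had the highest log2 ratio of the averages (8.75 ± 1.03). It had 2 reads over the 3 YES libraries and 1061 over those at 8 h. From these summed reads and the summed size factors the ratio was 484, with a 95% exact counting interval from 134 to 4000. Genes with the same product name, SPBC1348.06c and SPBPB2B2.15, averaged 97.3 and 96.1 at 8 h, and where such copies are near-identical, reads may be split between them. On the lower side, the methyltransferase gene SPCC70.08c went from 1921, 2067 and 1841 to 702, 642 and 627 (−1.56 ± 0.07), spo6, a regulatory subunit of a sporulation kinase, from 176, 155 and 172 to 81.7, 73.6 and 65.1 (−1.19 ± 0.18), and Tf2-11, a retrotransposon, from 163, 193 and 117 to 65.0, 82.4 and 84.3 (−1.03 ± 0.21). Under limma Tf2-11 was under 2-fold without YES library a, without YES library b or without 8 h library a. Tf2 elements are near-identical copies, and only 2 of 13 listed were tested.

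At the minimum of 100, the features just inside were SPCPB16A4.06c (77.0 in YES and just at 100 at 8 h), emr1 (97.2 and 100.1) and SPNCRNA.1088 (100.3 and 85.6), and those just outside were SPNCRNA.943 (92.7 and 99.6), vta1 (65.7 and 99.6) and rpl20-antisense-1 (99.5 and 68.2).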

How the data were processed

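Poly(A)+ RNA of 12 wild-type libraries was sequenced as stranded pairs. Alignment by the authors used HISAT2 2.1.0, assembly ASM294v2 and SAMtools, reads were counted by HTSeq 0.10.0, and DESeq2 (no version stated) gave the comparisons with 0 h. In the 3 deposited tables stand, as signal, group averages of reads divided by size factors, and beside them the log2 fold change by the authors with its standard error, a Wald score and p-values. Of these comparison columns only the standard error was used. The ratio of the mean over the fit to the mean of these 12 libraries implied that the fit held at least 21, some of them from outside this time course. The fit planned for counts was not run, since no counts per library were given.

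The log2 ratio of the 2 averages was divided by its standard error and tested with a two-sided Wald test (Benjamini-Hochberg over 5378 features). Whole reads per library were recovered from the digits of the averages (6696 of 6988 features at 0 h, 6672 at 8 h, up to an average of 20000). limma 3.58.1 on log2(normalized reads + 1) served as a check, and both tests were run on simulated data. There the Wald test was given the simulation's own standard error, so its use of the deposited one was not tested. Named genes were the 10 largest coding rises and falls, 4 non-coding each way, up to 4 per class, the 5 largest gains and losses in reads and those next to the minimum. Classes followed the annotated products. The classes, lists and comparison were chosen with earlier results of these data known, and replicate independence rests on the study's statement. For promoter windows, 5139 of 5156 coding features were matched to RefSeq (ASM294v3) by systematic ID and 5138 gave a window. Intervals cover counting error only. Python 3.11.15 and R 4.3.3 were used.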

Additional observations from a re-analysis of the deposited data

How the results depend on the processing

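The 178 calls became 110 with a minimum of 500 (89 higher, 21 lower), 294 with no minimum (192 higher, 102 lower) and 92 when tested against a 2-fold change (81 higher, 11 lower). They stayed within 1.5 times with a minimum of 50 (210, 146 higher and 64 lower, the latter against 42), scaling by group sums (177), centring on the median (177, 127 higher and 50 lower) and a pseudocount of 10 (163). limma on recovered libraries, chosen after seeing the data, called 159 of 5046 features, including all 158 called ones with library values, and 155 to 168 when 1 library was left out. In those fits 21 calls were lost at least once, among them Tf2-11, isp6, meu14, snoZ16 and atg1801-antisense-1, with main log2 ratios of at most 1.06 upwards and −1.13 downwards. Each of the 158 kept an adjusted p of at most 0.000981 under limma with 1 library left out, so those losses were of fold. Changes at any fold numbered 2449 to 3056 across the alternatives (2894) and 2567 to 2774 with 1 library left out. Centring turned the split of these from 1528 higher and 1366 lower to 1324 and 1521, and the shifts behind the 2 scalings were 0.006 and 0.023 on the log2 scale. Of 57 class medians, 36 lay above 0 (32 to 36 across alternatives), and 1 of 0.1 or more changed sign, that of other non-coding RNA (0.20, and −0.31 with a minimum of 50). Beyond the spread of their medians over the 8 h libraries, 17 of the 57 classes moved with centring and 17 with a minimum of 500. With a minimum of 50, 6 moved, and 1 moved with each of group sums and the pseudocount. No named gene changed sign. Under each of group sums, centring, the pseudocount and limma, 1 named gene that passed the main test no longer passed. No paired analysis was possible because the recovered libraries carry no replicate numbers, and leaving out replicates 1 to 3 was therefore run over unnumbered libraries. Depth limits features under 100 normalized reads, where SPAC977.05c rests on 2 reads in YES.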
